A study of Mus musculus with 6 samples.

Results

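The genes described here are those of the insulin-like growth factor (IGF) and insulin receptor axis, measured in whole mouse pancreas 14 days after induced deletion of Ptf1a. They were taken by gene symbol: the ligand Igf1, the receptors Igf1r, Insr and Igf2r, the receptor substrates Irs1 and Irs2, and the binding proteins Igfbp3, Igfbp4, Igfbp5 and Igfbp7. All 10 of the 10 symbols were present among the 10245 genes of the deposited table. The RNA came from 6 mice, each giving 1 library. The 3 control mice were Ptf1a(CreER/+) and the 3 Ptf1a cKO mice were Ptf1a(CreER/fl), and the study describes a Cre-dependent R26R EYFP reporter in all its inducible Cre mice. The CreER allele lies in the Ptf1a locus and makes no PTF1A protein, so the controls carried a single working copy of the gene. Cre activity followed the expression of Ptf1a, which in the adult pancreas is restricted to acinar cells, whereas RNA was taken from the whole organ. All 6 mice received tamoxifen (TM) by gavage at 0.25 mg/g in 3 daily doses, and were killed on day 14. Each group held 1 male and 2 females. Control mice were 4 months old and Ptf1a cKO mice 5 months old, so genotype and age cannot be told apart.

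PTF1A is the transcription factor that maintains the digestive-enzyme program of acinar cells. Ptf1a itself measured 566, 601 and 652 normalized counts in the control pancreata and 19.8, 70.1 and 10.2 in the Ptf1a cKO pancreata. A list of 34 secreted acinar products made up 84.8 to 86.9% of all gene counts in the controls and 54.2, 68.9 and 43.9% in Ptf1a cKO pancreata 1, 2 and 3, so the tissue was pancreas in both groups and Ptf1a cKO 2 kept the most of both Ptf1a and enzyme RNA. The gene of median level had 125 to 129 normalized counts, whichever library was taken. The table had been normalized across libraries and whole read counts could not be recovered from it, so the depth of each library was unknown.

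IGF-1 and insulin act through related tyrosine kinase receptors, IGF1R and INSR, which phosphorylate the adaptors IRS1 and IRS2 and thereby activate PI3-kinase, AKT and mTOR. IGF2R lacks a kinase domain and carries IGF-2 and mannose 6-phosphate-tagged enzymes to lysosomes. The IGF-binding proteins hold IGFs outside the cell and can limit or prolong their access to IGF1R, while IGFBP7 binds IGFs only weakly. In the pancreas insulin is made by islet beta cells, and acinar cells, which surround the islets, carry insulin receptors.

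Of the 10 genes, 4 were higher in Ptf1a cKO than in control pancreata at an adjusted p under 0.05 (Igf1r, Igfbp4, Igfbp5 and Igfbp7), 1 was lower (Insr) and 5 did not pass. Over all 10245 genes, 17.1% passed as higher and 16.8% as lower in the same limma fit. The 3 values of each group did not overlap for 4 genes in the higher direction and 2 in the lower, against 26.5% and 24.3% over the table. On the log2 scale the median change was 0.58 over the 10 genes and 0.036 over the table. Fold changes are given as Ptf1a cKO over control, and those on the log2 scale were computed after adding 3.41 normalized counts to every value, which understates the change of low genes. Directions are those of the deposited normalization. With every library scaled to the same total, the median gene read 1.48 and 9587 of the 10245 genes passed as higher. All 10 genes described here were among them, with Igf1, Insr and Igfbp3 below that median gene. Because RNA of the whole organ was measured, fewer cells of a type and less RNA per cell cannot be told apart.

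The sequences just upstream of the 4 genes that passed as higher are shown because PTF1A binds DNA. Its complex recognizes an E-box (CANNTG) together with a TTTCCC box, and GGGCGG is the GC box typical of promoters without a TATA box. Each line holds the 250 bases before the RefSeq transcription start in the GRCm38.p6 assembly, 5′ to 3′ on the strand of the gene, and capitals mark a match to any of these 3 motifs on either strand. The windows are chr7:67952007-67952256 (plus strand) for Igf1r, chr11:99040994-99041243 (plus strand) for Igfbp4, chr1:72874866-72875115 (minus strand) for Igfbp5 and chr5:77408046-77408295 (minus strand) for Igfbp7. RefSeq starts can differ from the gene spans given below, which are from the GENCODE annotation. The Igf1r window ends short of the GENCODE start at 67952827, and the Igfbp5 window reaches past the GENCODE start at 72874884 into the gene.
Igf1r: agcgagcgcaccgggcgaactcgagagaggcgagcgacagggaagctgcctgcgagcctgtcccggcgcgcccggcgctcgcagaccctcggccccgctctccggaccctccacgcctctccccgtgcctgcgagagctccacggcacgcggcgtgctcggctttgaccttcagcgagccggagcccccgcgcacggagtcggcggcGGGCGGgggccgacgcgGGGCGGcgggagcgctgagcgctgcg
Igfbp4: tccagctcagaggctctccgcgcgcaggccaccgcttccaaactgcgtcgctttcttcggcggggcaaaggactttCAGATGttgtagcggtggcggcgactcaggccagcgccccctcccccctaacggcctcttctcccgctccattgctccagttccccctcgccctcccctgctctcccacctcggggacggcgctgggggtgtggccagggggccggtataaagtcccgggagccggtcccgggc
Igfbp5: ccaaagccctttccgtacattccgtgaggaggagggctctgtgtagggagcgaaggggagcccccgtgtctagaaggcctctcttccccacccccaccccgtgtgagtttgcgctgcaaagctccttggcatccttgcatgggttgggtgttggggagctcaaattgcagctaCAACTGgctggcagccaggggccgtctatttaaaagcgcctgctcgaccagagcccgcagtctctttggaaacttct
Igfbp7: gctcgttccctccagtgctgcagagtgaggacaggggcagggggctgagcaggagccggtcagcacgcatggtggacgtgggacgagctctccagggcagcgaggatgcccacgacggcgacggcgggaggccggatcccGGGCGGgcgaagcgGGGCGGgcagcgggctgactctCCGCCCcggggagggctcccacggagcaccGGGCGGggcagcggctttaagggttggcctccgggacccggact
The Igf1r window held 2 GGGCGG matches, starting 43 and 26 bases before the start, and neither of the other motifs. The Igfbp4 window held 1 CANNTG match, CAGATG, and the Igfbp5 window held 1, CAACTG. The Igfbp7 window held 4 GGGCGG matches, 1 of them on the opposite strand, and no CANNTG match. No TTTCCC match was present in these 4 windows. Among the other members, the windows of Igf1, Igf2r and Irs2, not shown, each held both CANNTG and TTTCCC. Those of Irs1 and Igfbp3 held CANNTG without TTTCCC, and Insr had no window. Of 32851 RefSeq promoter windows of the same length, 66.2% held CANNTG, 21.9% held TTTCCC and 32.7% held GGGCGG. GC content was 77.6% for Igf1r, 69.2% for Igfbp4, 58.8% for Igfbp5 and 74.0% for Igfbp7, against a median of 52.4% over all windows. These matches describe the letters of the windows and do not bear on where PTF1A was bound.

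Igf1r, which encodes the receptor through which IGF-1 and IGF-2 act, showed the largest change of the 10 genes. It spans chr7:67952827-68233668 on the plus strand (GRCm38). Its normalized counts were 276, 275 and 264 in the control pancreata and 788, 570 and 1132 in Ptf1a cKO 1, 2 and 3. All 3 Ptf1a cKO values lay at more than 2-fold every control value, and the controls were close to each other. The means were 271 ± 6.42 (SD, n = 3) and 830 ± 284 (SD, n = 3), a 3.06-fold difference. The log2 fold change was 1.54 with a standard error of 0.21 and a 95% interval of 1.06 to 2.03, and the adjusted p in limma was 9.09e-04. The exact permutation test of this single gene gave a two-sided p of 0.10, the smallest that 3 against 3 samples can reach. Leaving out 1 library at a time kept the log2 fold change between 1.29 (without Ptf1a cKO 3) and 1.79 (without Ptf1a cKO 2), with all 6 fits past the threshold.

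Insr, which encodes the insulin receptor, was lower in the Ptf1a cKO pancreata on the deposited scale. It lies on the minus strand at chr8:3122061-3279617 (GRCm38). Its normalized counts were 645, 677 and 668 in the controls and 474, 450 and 484 in the Ptf1a cKO group. The groups did not overlap and the spread within each was narrow, at 663 ± 16.6 against 469 ± 17.2 (SD, n = 3 each). Ptf1a cKO pancreata thus held 70.7% of the control level. The log2 fold change was -0.50 (standard error 0.10, 95% interval -0.73 to -0.27, adjusted p 0.0059 in limma), and all 6 fits that left out a library passed. With every library scaled to the same total, Insr read 0.99 on the log2 scale, with -0.49 relative to the median gene, while Igf1r lay 1.55 above that gene.

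The ratio of Igf1r to Insr within a library does not depend on how libraries are scaled. Igf1r counts divided by Insr counts gave 0.427, 0.406 and 0.395 in the controls and 1.66, 1.27 and 2.34 in Ptf1a cKO 1, 2 and 3. Every control pancreas held less Igf1r than Insr and every Ptf1a cKO pancreas held more. With the same pseudocount, the log2 ratio averaged -1.28 ± 0.056 (SD, n = 3) in controls and 0.76 ± 0.44 (SD, n = 3) after deletion. The difference of 2.04, or 4.12-fold, had a two-sided p of 0.10 by exact permutation, again the smallest possible. Per kb of exon, the ratio was 0.350, 0.332 and 0.324 in the controls and 1.36, 1.04 and 1.92 in the Ptf1a cKO libraries. Among the 3 Ptf1a cKO pancreata, Igf1r and the ratio were lowest in Ptf1a cKO 2, which kept the most Ptf1a, and highest in Ptf1a cKO 3, which kept the least. With 3 pancreata this order is a description, and the part of incomplete deletion in it was not tested. Insr had the same order over a narrower range, from 450 in Ptf1a cKO 2 to 484 in Ptf1a cKO 3.

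**Figure D1:**
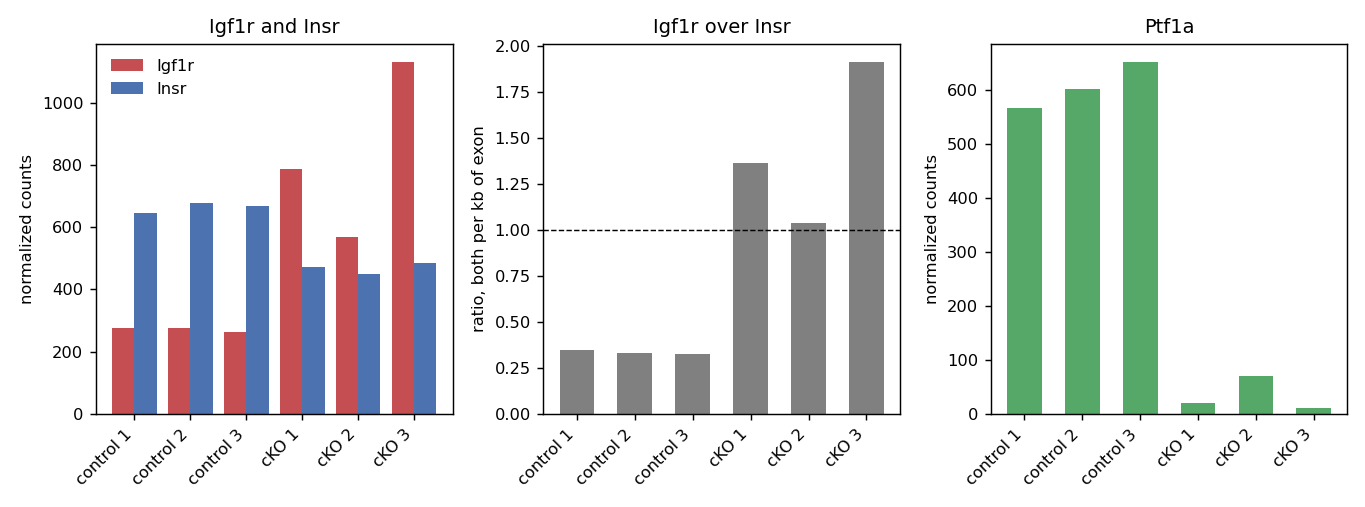
Bars show, for each of the 6 pancreata, the normalized counts of Igf1r and Insr (left), their ratio per kb of exon with a dashed line at 1 (middle) and the normalized counts of Ptf1a (right). The ratio is 0.324 to 0.350 in the 3 controls and 1.36, 1.04 and 1.92 in Ptf1a cKO 1, 2 and 3, while Ptf1a is 566 to 652 normalized counts in controls and 10.2 to 70.1 in Ptf1a cKO pancreata.

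Igf2r, the non-signalling receptor for IGF-2, did not pass the test. It lies on the minus strand at chr17:12682406-12769664 (GRCm38). Its normalized counts were 483, 477 and 354 in controls and 457, 459 and 526 in Ptf1a cKO pancreata, with overlapping groups. The log2 fold change was 0.14 (standard error 0.14, 95% interval -0.18 to 0.47, adjusted p 0.467 in limma), an interval that leaves room for a change of either sign. Insrr, the orphan receptor related to INSR, was also in the table, at 57.0, 42.5 and 123 in controls and 94.2, 21.1 and 163 in Ptf1a cKO pancreata. Its groups overlapped as well (log2 fold change 0.06, adjusted p 0.95 in limma).

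The ligand Igf1 spans chr10:87858265-87937042 on the plus strand (GRCm38). Its normalized counts were 573, 561 and 484 in controls and 413, 390 and 498 in Ptf1a cKO pancreata. The third Ptf1a cKO value exceeded the lowest control, so the groups overlapped. The means were 539 ± 48.2 and 434 ± 57.0 (SD, n = 3 each). Igf1 thus read -0.32 on the log2 scale (standard error 0.13, 95% interval -0.61 to -0.02) and did not pass (adjusted p 0.0895 in limma). It passed when Ptf1a cKO 3 was left out (log2 fold change -0.42, adjusted p 0.0441). The insulin genes Ins1 and Ins2, close paralogs whose reads can be split between them, varied widely within each group. Ins1 measured 2932, 2427 and 9847 in controls and 6508, 1520 and 7901 in Ptf1a cKO pancreata (log2 fold change 0.05, adjusted p 0.957 in limma). Ins2 measured 5871, 5179 and 24000 in controls and 12420, 2900 and 14110 in Ptf1a cKO pancreata (log2 fold change -0.17, adjusted p 0.865 in limma). The spread of both genes within a group was far larger than the difference between the groups. Igf2 was not analysed here.

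Ghr encodes the growth hormone receptor, through which growth hormone drives Igf1 expression in many tissues. It measured 1004, 1135 and 1182 in controls and 3058, 2785 and 3354 in Ptf1a cKO pancreata. The groups were far apart (log2 fold change 1.47, standard error 0.13, adjusted p 1.13e-04 in limma), whereas Igf1 did not pass. The difference between Ghr and Igf1, and any link between them in this tissue, were not tested. Of 4 growth hormone genes in the table, Ghr was the 1 that passed, while 17.1% of all genes passed as higher.

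Among the binding proteins, Igfbp4, Igfbp5 and Igfbp7 were higher and Igfbp3 did not pass. Igfbp4 encodes a protein that mainly restrains IGF action and is cleaved by a pappalysin, and it spans chr11:99041244-99054392 on the plus strand (GRCm38). It measured 301, 265 and 471 in controls and 596, 744 and 760 in Ptf1a cKO pancreata, a 2.02-fold difference in means (346 ± 110 against 700 ± 90.4, SD, n = 3 each). No Ptf1a cKO value reached down to the controls. The log2 fold change was 1.05 (standard error 0.21, 95% interval 0.58 to 1.51, adjusted p 0.00495 in limma), and it stayed between 0.88 and 1.29 with 1 library left out, past the threshold in all 6 fits.

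Igfbp5, whose product binds IGFs and the extracellular matrix, lies on the minus strand at chr1:72857932-72874884 (GRCm38). It measured 628, 506 and 729 in controls and 962, 1076 and 967 in Ptf1a cKO pancreata. The groups did not overlap, and the means of 621 ± 112 and 1001 ± 64.4 (SD, n = 3 each) differed 1.61-fold (log2 fold change 0.70, standard error 0.15, 95% interval 0.37 to 1.03, adjusted p 0.00649 in limma). All 6 fits with a library left out passed.

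Igfbp7, expressed by vascular and stromal cells in many organs, lies on the minus strand at chr5:77349240-77408041 (GRCm38). It measured 365, 306 and 505 in controls and 556, 647 and 742 in Ptf1a cKO pancreata. The lowest Ptf1a cKO value was only slightly above the highest control. The means were 392 ± 102 and 649 ± 92.9 (SD, n = 3 each), a 1.66-fold difference (log2 fold change 0.74, standard error 0.19, 95% interval 0.32 to 1.17, adjusted p 0.0154 in limma). It passed in 4 of 6 fits with a library left out, and missed the threshold without control 1 (log2 fold change 0.71, adjusted p 0.0589) and without control 2 (0.58, adjusted p 0.0597). An exon of Igfbp7 overlaps an exon of Polr2b on the opposite strand, and the use of strand in counting is not given in the sources used here. Polr2b did not pass (213 ± 12.9 in controls and 253 ± 3.59 in Ptf1a cKO pancreata, adjusted p 0.0984 in limma).

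Igfbp3, the main IGF carrier of the circulation, lies on the minus strand at chr11:7206086-7213923 (GRCm38). It measured 296, 246 and 270 in controls and 227, 126 and 216 in Ptf1a cKO pancreata. The groups did not overlap, but the spread within the Ptf1a cKO group was wide (271 ± 25.2 against 190 ± 55.8, SD, n = 3 each). Igfbp3 read -0.55 on the log2 scale (standard error 0.21, 95% interval -1.02 to -0.07) and did not pass (adjusted p 0.0718 in limma). It passed without Ptf1a cKO 1 (log2 fold change -0.70, adjusted p 0.0483) and read -0.28 without Ptf1a cKO 2.

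Igfbp6, which binds IGF-2 in preference to IGF-1 and belongs to a wider pathway list, was the other binding protein that passed. It measured 129, 126 and 141 in controls and 203, 349 and 186 in Ptf1a cKO pancreata, with groups apart and the highest value in Ptf1a cKO 2 (log2 fold change 0.83, adjusted p 0.0169 in limma). Its adjusted p was 0.0577 when control 2 was left out, and it also missed the threshold without control 1. Igfals, the acid-labile subunit of circulating IGF complexes, did not pass (log2 fold change 0.39, adjusted p 0.33 in limma). Igfbp1 and Igfbp2 were not analysed here.

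The substrates Irs1 and Irs2 had low and variable counts. Irs1 (minus strand, chr1:82233101-82291416, GRCm38) measured 31.9, 58.1 and 82.9 in controls and 123, 58.2 and 87.4 in Ptf1a cKO pancreata. Its log2 fold change was 0.64 (standard error 0.34, 95% interval -0.14 to 1.41, adjusted p 0.177 in limma), and it passed when sex was added to the model (adjusted p 0.0385). Irs2 (minus strand, chr8:10984681-11008458, GRCm38) measured 27.8, 24.6 and 33.6 in controls and 77.0, 24.9 and 38.4 in Ptf1a cKO pancreata. Both genes thus overlapped between groups, and in both the highest value was that of Ptf1a cKO 1. The log2 fold change of Irs2 was 0.52 (standard error 0.36, 95% interval -0.29 to 1.32, adjusted p 0.286 in limma), falling to 0.11 when Ptf1a cKO 1 was left out. The annotation places exons of other genes on the opposite strand within exons of both substrates, Gm9747 for Irs1 and 9530052E02Rik for Irs2, and neither of these was analysed here.

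**Figure D2:**
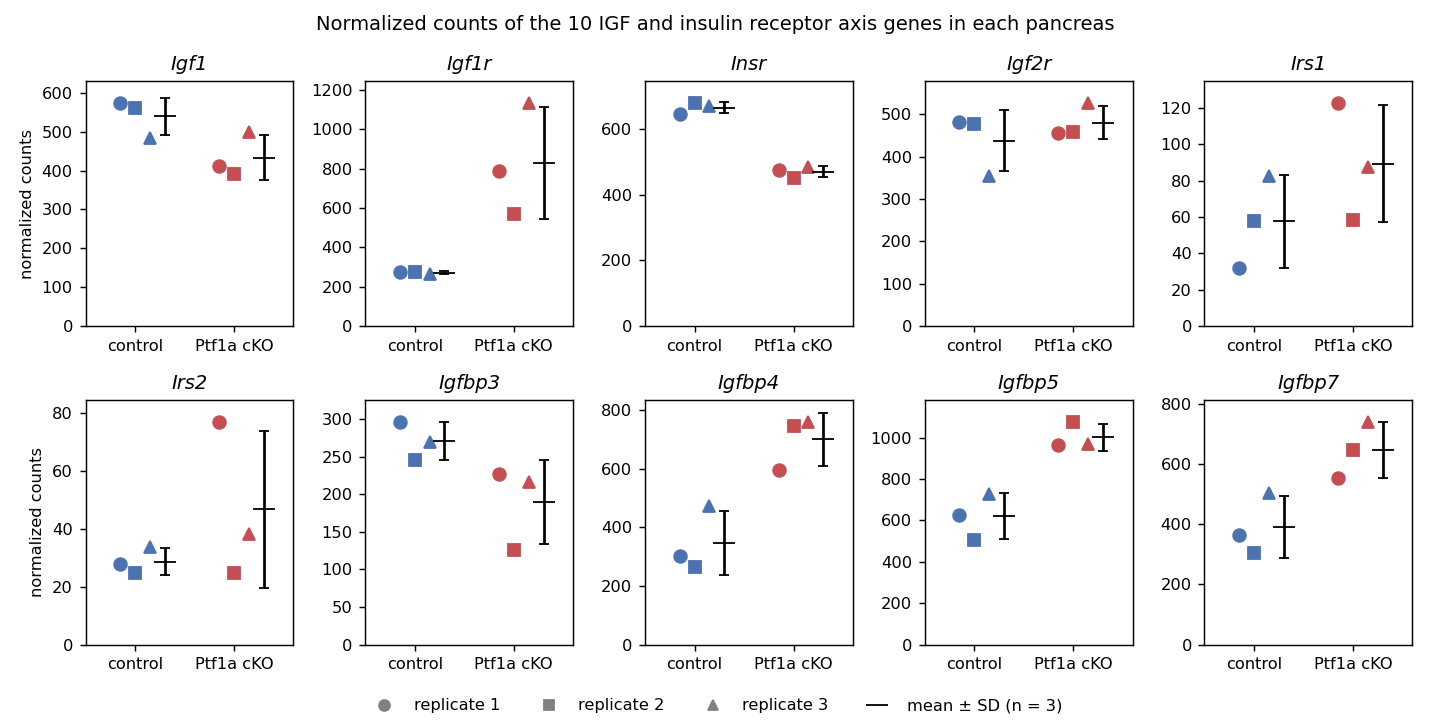
Each panel shows 1 gene, with a point per pancreas (3 control, 3 Ptf1a cKO), a line at the group mean and bars of 1 SD, in normalized counts from 0. The groups are apart for Igf1r, Igfbp4, Igfbp5 and Igfbp7 (higher in Ptf1a cKO) and for Insr and Igfbp3 (lower), and they overlap for Igf1, Igf2r, Irs1 and Irs2.

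**Figure D3:**
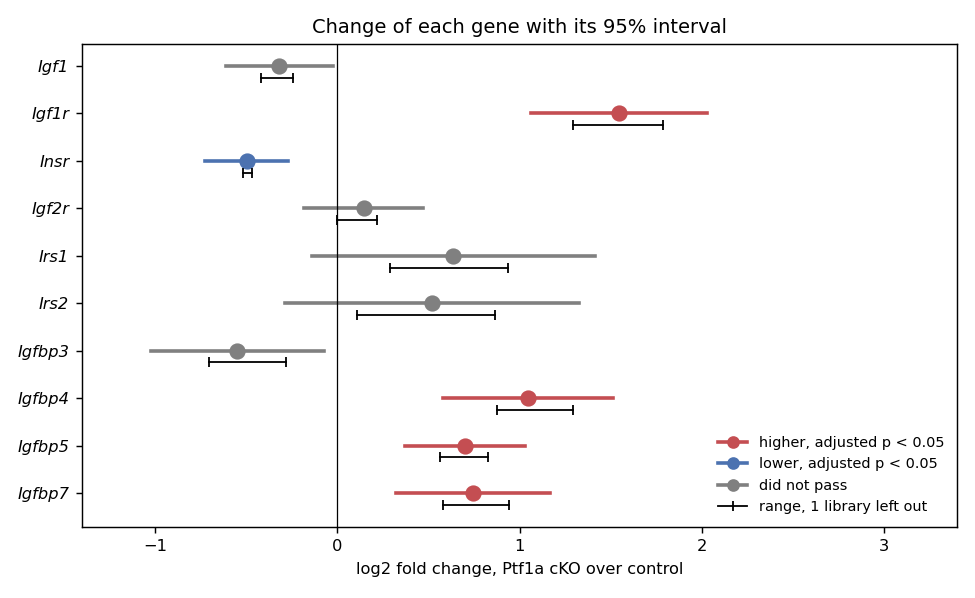
Points are log2 fold changes of Ptf1a cKO over control on the scale of the deposited normalization, with 95% intervals from limma (red higher, blue lower, grey did not pass), and black bars span the values with 1 library left out. Igf1r lies at 1.54 and Igfbp4 at 1.05, Insr lies at -0.50, and the intervals of Igf2r, Irs1 and Irs2 include 0. With all libraries scaled to the same total, Igf1, Insr and Igfbp3 lie above 0.

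Levels of different genes were compared per kb of exon (the union of annotated exons). In controls, Igfbp7 stood highest, with a mean of 324 normalized counts per kb, and its lowest library was above every library of Igfbp5 (103). Igfbp5, Igfbp3 (86.5) and Igfbp4 (78.3) followed, with overlapping neighbours. Below them, Igf1 (54.5), Insr (48.3) and Igf2r (47.1) overlapped with their neighbours in that order, and Igf1r (16.2) lay apart from both its neighbours. Irs1 (6.30) and Irs2 (4.54) came last and overlapped. In Ptf1a cKO pancreata, Igfbp7 (537 per kb) again stood above Igfbp5 (167) and Igfbp4 (158), which overlapped. Igfbp3 (60.6), Igf2r (51.6), Igf1r (49.4) and Igf1 (43.8) then formed a run of overlapping neighbours, with Insr (34.1) below and apart from Igf1. Irs1 (9.77) and Irs2 (7.40) were again the lowest. Igf1r and Insr therefore changed places in the order, with Igf1r in the range of Igf2r and Igf1 in the Ptf1a cKO group.

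Markers of other cell types were counted in the same fit, and those of stellate cells and macrophages were mostly higher. Over all genes, 17.1% passed as higher and 16.8% as lower. Of 20 stellate cell and fibroblast genes measured, 16 passed as higher, among them Col1a1 (log2 fold change 1.96), Lum (1.49), Pdgfra (1.08) and Dcn (0.74). The other 4 did not pass: Fbln2 (0.238), Dpt (0.455), Pdgfrb (-0.104) and Gas1 (-0.415), the last with groups apart in the lower direction. The median over the 20 genes was 1.06. The summed normalized counts of the 20 genes were 4533 to 5283 in controls and 7973, 14997 and 10680 in Ptf1a cKO 1, 2 and 3. Of 12 macrophage genes, 11 were higher, with sums of 685 to 1189 in controls and 2641, 1915 and 3091 in Ptf1a cKO 1, 2 and 3, including Csf1r (1.05) and Cd68 (1.11). Of 14 endothelial genes, Vwf alone was higher, and the sums were 1634 to 2129 and 1669 to 1972, with Pecam1 at -0.10 (adjusted p 0.604 in limma). Of the remaining lists, 2 of 5 smooth muscle and pericyte genes, 3 of 6 lymphocyte genes, 6 of 10 ductal genes, 1 of 6 adipocyte genes, 3 of 7 proliferation genes and 1 of 17 endocrine genes (Ttr) were higher. The adipocyte share, which rests on Cfd alone, was near that of all genes, and the endothelial and endocrine shares were below it. Among the markers called higher, Cd14, Cd52, Car2, Cfd and Mcm5 lay under 27.6 in every control, the lowest maximum of any gene in the table. They were thus in the table only through their Ptf1a cKO values. Their calls are therefore no test of a rise, and the counts of their lists include them. Of the acinar secreted products, 24 of 34 were lower and 1 was higher. The part of stromal and immune cell content in the values of Igf1r, Igfbp4, Igfbp5 and Igfbp7 was not tested. Within the Ptf1a cKO group, the stromal sum was highest in Ptf1a cKO 2, as were Igfbp5 and Igfbp6. The macrophage sum was lowest in Ptf1a cKO 2 and highest in Ptf1a cKO 3, as was Igf1r. The same held for the sums of the smooth muscle and pericyte, endothelial, lymphocyte, ductal, endocrine and adipocyte lists. The acinar sum was highest in Ptf1a cKO 2 and lowest in Ptf1a cKO 3, and the proliferation sum was highest in Ptf1a cKO 2. Igfbp4 and Igfbp7 were also highest in Ptf1a cKO 3 but lowest in Ptf1a cKO 1, and Igfbp3 was lowest in Ptf1a cKO 2.

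Beyond the 10 genes, a list of 83 genes of insulin and IGF signalling was taken through the same fit, of which 68 were in the table. Of these, 7 were higher, 10 were lower and 51 did not pass, with a median log2 fold change of -0.08, so the shares were near or below the 17.1% and 16.8% of all genes. The higher count includes Pik3r3 and Pik3ip1, which were in the table only through their Ptf1a cKO values. With 1 library left out at a time, 11 of the 17 passed in all 6 fits, and Igfbp6, Ide, Crkl, Pik3r3, Pik3ip1 and Rptor did not. With libraries scaled to the same total, 8 of the 10 lower genes read above 0, all 10 remained below the median gene and all 7 higher genes remained above it.

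Of 3 genes that process or clear hormones and receptors, 1 was higher and 2 were lower, beside 17.1% and 16.8% of all genes. Furin, a protease that cleaves the proreceptors of INSR and IGF1R, measured 1039, 1053 and 1043 in controls and 5643, 3502 and 5243 in Ptf1a cKO pancreata. The control mean was 1045 ± 7.58 (SD, n = 3), and the lowest Ptf1a cKO value was again that of Ptf1a cKO 2 (log2 fold change 2.16, standard error 0.18, adjusted p 9.09e-05 in limma). Ceacam1, a promoter of insulin clearance, was lower, at 124, 126 and 140 against 62.1, 53.8 and 56.4 (-1.13, adjusted p 3.55e-04 in limma). Ide, the insulin-degrading enzyme, was lower by less (-0.37, adjusted p 0.0263 in limma). Pdk1, placed on the list among AKT and mTOR genes, is in mouse nomenclature a pyruvate dehydrogenase kinase and no upstream kinase of AKT, and it was lower (-1.22, adjusted p 1.74e-04 in limma).

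Proteins that control the cleavage of IGF-binding proteins moved in both directions. Stc2 encodes stanniocalcin-2, an inhibitor of the pappalysins that cleave IGFBP4 and IGFBP5. It measured 280, 293 and 306 in controls and 26.0, 67.7 and 37.7 in Ptf1a cKO pancreata. The fall was large and the groups were far apart (log2 fold change -2.75, standard error 0.27, adjusted p 1.99e-04 in limma). Htra1, a secreted serine protease that can cleave IGFBP5, was higher, at 88.1, 94.3 and 101 against 154, 170 and 128 (log2 fold change 0.65, adjusted p 0.00692 in limma). Pappa2, the pappalysin in the table, measured 32.9, 21.7 and 117 in controls and 58.6, 11.2 and 73.8 in Ptf1a cKO pancreata and did not pass (-0.22, adjusted p 0.831 in limma). The other pappalysin gene, Pappa, was not analysed here.

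Of 9 genes of PI3-kinase and its regulators, 3 were higher, beside 17.1% of all genes. Pik3r1, the p85-alpha regulatory subunit that docks on phosphorylated IRS proteins, measured 608, 643 and 657 in controls and 2299, 1427 and 2211 in Ptf1a cKO pancreata (3.11-fold in means, adjusted p 3.47e-04 in limma). As with Igf1r and Furin, the groups were apart and Ptf1a cKO 2 was the lowest of its group. Pik3ip1, a transmembrane inhibitor of PI3-kinase, rose by 1.29 on the log2 scale (adjusted p 0.0152 in limma). Pik3r3, another regulatory subunit, rose by 0.93 (adjusted p 0.0307 in limma), and both had control means under 20 normalized counts. Every control value of these 2 genes lay under 27.6, the lowest maximum of any gene in the table. Only their Ptf1a cKO values brought them into the table, so their calls, and with them the count of 3, are no test of a rise. The catalytic subunit Pik3ca read -0.03 and did not pass.

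Downstream, 5 of 25 AKT and mTOR genes were lower, Pdk1 included, a share near the 16.8% of all genes. Akt1, a kinase activated by PI3-kinase products, measured 1806, 1828 and 1778 in controls and 844, 985 and 765 in Ptf1a cKO pancreata (log2 fold change -1.07, adjusted p 4.27e-04 in limma). Eif4ebp1, a translational repressor that mTOR inactivates, measured 735, 737 and 778 against 155, 260 and 140 (-2.05, adjusted p 2.17e-04 in limma). For both genes every Ptf1a cKO value was below every control. Rps6kb1, the S6 kinase, read -0.82 (adjusted p 0.00188 in limma) and Rptor, the mTORC1 scaffold, -0.47 (adjusted p 0.0168 in limma). Akt2 read -0.32 (adjusted p 0.0871 in limma), Mtor read 0.33, and neither passed. None of these measurements gives the phosphorylation or activity of the proteins.

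Inhibitors and adaptors that act at the receptors gave 1 lower call each, also near the 16.8% of all genes. Of 7 receptor inhibitors 1 was called, Grb10, an adaptor that dampens INSR and IGF1R signalling, at 469, 577 and 601 in controls and 294, 328 and 308 in Ptf1a cKO pancreata (-0.81, adjusted p 0.00158 in limma). Of 9 adaptor genes 1 was called, Crkl, which carries SH2 and SH3 domains and was lower by a small amount (-0.43, adjusted p 0.0343 in limma). The 3 FOXO genes in the table, which encode transcription factors that AKT inhibits, did not pass, with Foxo1 at 0.11.

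**Figure D4:**
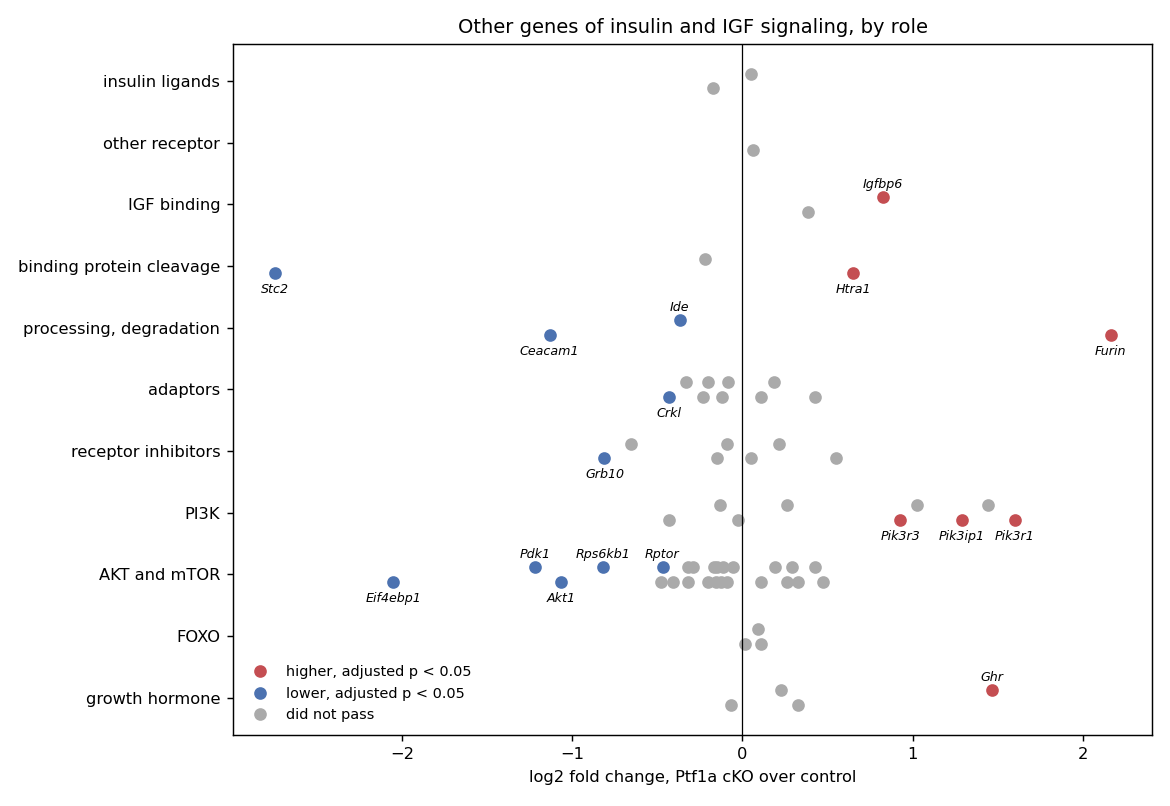
Each point is 1 of the 68 listed genes in the table, placed by its role (rows) and its log2 fold change of Ptf1a cKO over control on the deposited normalization, with those that passed the test marked in colour. Of the genes that passed, Furin (2.16) lies farthest to the right, followed by Pik3r1 and Ghr (1.47), and Stc2 (-2.75) and Eif4ebp1 (-2.05) farthest to the left.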

How the data were processed

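Whole-pancreas RNA of 6 mice (3 control, 3 Ptf1a cKO) was sequenced by the authors from TruSeq libraries. The submitters' processing notes name TopHat2 2.0.4, Bowtie 0.12.7.0, SAMtools 0.1.18.0, HTSeq 0.6.0 and build mm9, and the study's methods name edgeR with TMM normalization. The deposited values are normalized read counts per gene, a signal made by the authors, from which whole reads could not be recovered, so depth is unknown and no count model was used. The table listed no gene whose highest library was under 27.6, so low genes had been removed before deposit, and no further filter was applied. The 3 counter rows that name no gene held 75.7 to 82.6% of each library's summed values and were left out, and 17 symbols had been converted to dates.

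Values were divided by 13.6 in every library, 0.25 was added, and log2 values were tested with limma 3.58.1 (trend, R 4.3.3) over all 10245 genes with Benjamini-Hochberg adjustment at 0.05. Single values used the exact permutation test (scipy 1.17.1). The fit was tested on simulated data. Groups and replicate numbers came from the labels. With 3 separate mice a group, p-values measure the spread between mice. Deviations from the group means correlated weakly between control and Ptf1a cKO samples with the same number (r = 0.039, 0.134 and 0.144). Between samples with different numbers r was -0.202 to 0.083. The numbers were not taken as pairs in the main fit.

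Genes named are the 10 members, Ins1, Ins2 and the binding proteins, up to 20 listed pathway genes past the threshold by size of change, and the genes most like Igf1r. A few listed genes that did not pass, and example markers, were named after their values were seen. Members and lists were chosen with earlier results of these data known. Gene positions and exon lengths are from GENCODE vM21 and promoters from RefSeq, both on GRCm38, whereas reads had been aligned to mm9. Promoter windows were matched for 9 of the 10 genes, Insr being the other. Alternatives were other pseudocounts, a filter, other scalings and variance models, sex as a covariate, the replicate block and leaving out each library.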

Additional observations from a re-analysis of the deposited data

How the results depend on the processing

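Igf1r, Igfbp4 and Igfbp5 kept their direction and their side of the threshold in all 16 alternatives, and the Igf1r to Insr log2 ratio stayed between 1.81 (without Ptf1a cKO 3) and 2.25 (without Ptf1a cKO 2). With every library at the same total, the median gene rose by 1.48 on the log2 scale. Of all 10245 genes, 9587 then passed as higher and 129 as lower, so 98.7% of calls were higher, against 50.4% as deposited. There the higher count was 10 of the 10 members and the lower count 0 in limma (0 at an unadjusted p under 0.05). Igf1 read 1.17, Insr 0.99 and Igfbp3 0.93, and the 68 pathway genes gave 62 higher and 2 lower. With the same total after leaving out secreted acinar genes, 34.0% of calls were higher (1131 higher, 2198 lower), 3 members were lower (Insr, with Igf1 at -0.46 and Igfbp3 at -0.69) and Igf2r read -0.001. With the replicate block, 2 members were lower, as Igfbp3 passed (adjusted p 0.0269 in limma). In that fit 11 of the 68 pathway genes were higher, beside 1814 higher and 1711 lower of all 10245 genes. No other call among the members changed under the replicate block. With 1 library left out, the lower members numbered 1 to 2, beside 1182 to 1747 of all 10245 genes. The higher pathway genes were fewest without control 2, at 4 of 68, beside 1181 of all genes. They were most without Ptf1a cKO 2, at 12, beside 1854 of all genes. Igf2r read -0.001 (without control 3) to 0.22. Sex as a covariate gave 5 higher members, Irs1 included, beside 1686 of all genes. A filter on a mean of 50 normalized counts removed Irs2. Apart from the scaling itself, the cause of these shifts was not tested. With 3 mice a group and unknown depth, the intervals of Irs1 and Irs2 include changes of more than 2-fold.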

Other observations

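Over the 6 libraries, the genes whose log2 values followed Igf1r most closely by Pearson correlation, among 10244 others, were Nek9 (r = 0.9994), Iqgap1 (0.9987), Fut2 (0.9981), Napepld (0.998) and Dusp6 (0.9965). These values are descriptions. The 6 points form 2 groups and share libraries and scaling, and the sizes of change differed. Nek9 rose 1.30-fold, Iqgap1 1.67-fold, Dusp6, a phosphatase of ERK, 2.63-fold and Napepld 4.65-fold between the group means, and Fut2 was at 0.521 to 2.28 normalized counts in controls and 23.9 to 130 in Ptf1a cKO pancreata. Every control value of Fut2 and Napepld lay under 27.6, the lowest maximum of any gene in the table. These 2 genes were thus in the table only through their Ptf1a cKO values. The lowest correlations were those of the trypsinogen gene Prss2 (-0.9989), Itpka (-0.9985) and Ttc1 (-0.9982). Prss2 measured 897200, 888700 and 845700 in controls and 164600, 260700 and 91690 in Ptf1a cKO 1, 2 and 3. Of the other members, Insr stood at -0.888 and Igfbp4 at 0.829.

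Insrr and Pappa2 varied over the 6 pancreata as the insulin genes did, a likeness picked out after the values were seen. Ins1, Ins2, Insrr and Pappa2 each had their lowest value in Ptf1a cKO 2 and their highest control value in control 3. The glucagon gene Gcg (521) and the somatostatin gene Sst (70.9) were also lowest in Ptf1a cKO 2, against 1287 to 3113 and 175 to 452 in controls. How much islet tissue each pancreas contributed was not measured. Ttr, which alpha cells express, was the 1 endocrine gene that passed as higher, at 1109, 1937 and 1392 in controls and 92770, 13130 and 86790 in Ptf1a cKO pancreata. The other 16 endocrine genes did not pass, among them the alpha cell hormone gene Gcg (log2 fold change 0.22, adjusted p 0.841 in limma). Which cells held the Ttr RNA was not tested.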
